A study of Mus musculus with 5 samples.

Results

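Pi16/Col14a1 fibroblasts are a rare group of mesenchymal cells of the juvenile mouse ovary, described here across genes and across the ages at which ovaries were taken. The group was chosen from measured values: a cell needed at least 1000 detected genes, under 15% of its counts from mitochondrial genes, a count of at least 3 of the 5 genes Pi16, Col14a1, Clec3b, Ly6a and Il33, at least 3 counts of Dcn, at most 4 of Inha, and none of Ptprc, Cdh5 or Krt19. Of 48163 cells, 207 met this rule. The cells came from untreated C57BL6/J mouse ovaries at 2, 3, 4, 5 and 6 wk of age, a span over which the first follicles grow and puberty arrives. Each age was 1 library of single-cell RNA, so no value had a replicate and no test was made between ages. How many animals each library held was not given in the sources used here. The ovaries were taken apart with trypsin and live cells were sorted on a dye that enters dead cells, so cells that such handling loses would be missed.

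Fibroblasts of this kind are best known from the adventitia, the loose connective tissue sleeve around arteries and large veins. There and in the fascia, cells with Pi16 (a secreted peptidase inhibitor) and Ly6a (the surface protein Sca1) lay down collagen and elastin, hold the alarmin cytokine Il33, and are regarded as a reserve for other fibroblasts. The ovary has a vessel-rich medulla and a stromal cortex, and its stroma gives rise to the theca cells and contractile cells that surround follicles. Dcn, the collagen-binding proteoglycan decorin, marks stroma as a whole, Inha marks granulosa cells, Ptprc blood cells, Cdh5 endothelium and Krt19 epithelium. Dissociated cells carry no position, so these data do not show where in the ovary the cells lay.

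The libraries held 124938004, 93438618, 117666094, 107071492 and 144609431 UMIs (unique molecular identifiers, each a counted RNA molecule) at 2, 3, 4, 5 and 6 wk. Pi16/Col14a1 fibroblasts numbered 51, 38, 45, 60 and 13 at the same ages and held 2381866 UMIs together. They are set here beside 11609 other stromal cells, which passed the same limits but had 2 or fewer of the 5 markers. Contractile, theca and dividing cells that passed these limits were not set apart from the comparison. How far such cells set its levels was not tested. The fibroblasts' median UMI counts of 13915, 7469, 9228, 11806 and 9987 lay above those of the other stromal cells (11277, 7671, 7374, 8496 and 9007.5) at every age but 3 wk. A doublet caller marked 1 of the 207 cells. Any pair of libraries shared 18 to 35 cell barcodes, and no 2 libraries shared the barcode of a Pi16/Col14a1 fibroblast.

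The share of these cells was highest at 5 wk and lowest at 6 wk. Among cells that passed the limits on detected genes and mitochondrial counts it was 0.658%, 0.496%, 0.491%, 0.915% and 0.147% from 2 to 6 wk. Exact binomial 95% intervals ran from 0.490 to 0.864% at 2 wk, 0.699 to 1.18% at 5 wk and 0.0785 to 0.252% at 6 wk, and they cover counting error only. The 6 wk interval lay below those of the other 4 ages, and the share at 6 wk was 0.161 times that at 5 wk (95% interval 0.0811 to 0.297). The share at 5 wk was 1.39 times that at 2 wk (0.942 to 2.06), so among these cells the order of the 2 ages lay within counting error. With Ly6a left out and only 2 of the 4 other markers needed, 2 wk stood highest among deposited cells. Among Dcn-positive stromal cells the shares were 1.75%, 1.61%, 2.31%, 3.096% and 0.490%. With 1 library an age, a change in the ovary cannot be told apart from a difference between dissections or cell sorts.

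**Figure D1:**
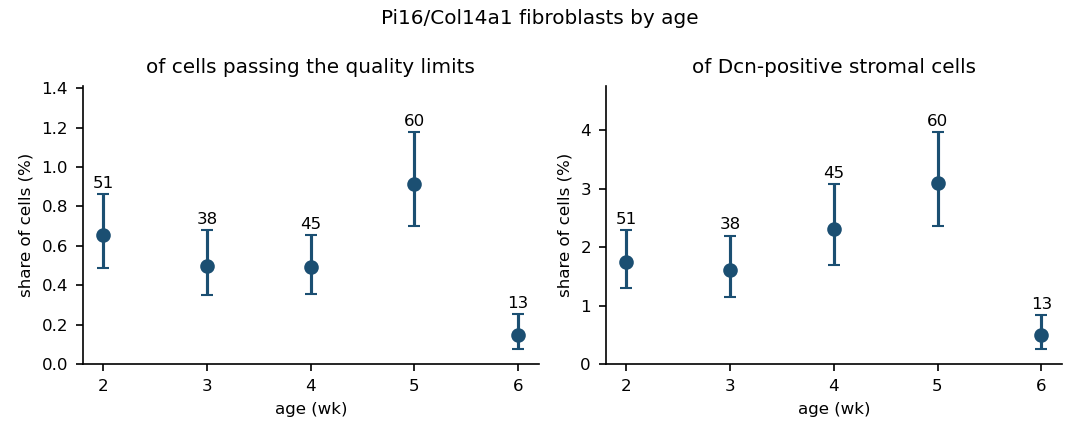
Share of Pi16/Col14a1 fibroblasts (%, vertical axis) against age (wk, horizontal axis) among cells passing the quality limits (left) and among Dcn-positive stromal cells (right). Points are single libraries, bars exact binomial 95% intervals for counting error, and numbers the cells found; 5 wk stands highest at 0.915% on the left, and 6 wk lowest with 13 cells.

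The 5 markers chose the cells, so their levels are a description. Clec3b (tetranectin, a plasminogen-binding protein) averaged 958 CPM (a gene's UMIs scaled to a common library total) over the 5 libraries, Col14a1 (a collagen that coats fibrils) 440.3, Ly6a 192 and Pi16 174. The commonest combination was Col14a1, Clec3b and Il33 alone, in 65 cells, and 33 cells had all 5 markers. Pi16 itself had a UMI in 101 of the 207. Levels of Pi16 at the 5 ages were 99.4, 235, 249, 199.7 and 86.2 CPM, of Ly6a 85.9, 165, 277, 347 and 86.2 CPM and of Il33 249.8, 225, 229.9, 166 and 129 CPM. Dcn was far from its limit, since the lowest cell held 10 UMIs of it and the median cell 111. Inha had no UMI in 128 of the cells and 1 UMI in 43, and Inha alone kept out 17 further cells with 3 or more markers. Cdh5 alone kept out 9 such cells, Krt19 alone 5, and Ptprc alone 0.

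The limit of 3 markers did not fall at the largest step in levels of Dpt, Gsn and Acta2, which lay between cells with 1 and with 2 markers. Sorted by how many of the 5 markers they had, 10394 stromal cells had 0, 983 had 1, 232 had 2, 119 had 3, 55 had 4 and 33 had all 5. Dpt, which encodes dermatopontin, a small matrix protein that binds decorin and collagen, is also known from such fibroblasts and had no part in the rule. It measured 25.4, 69.1, 521, 736, 835 and 712 CPM in cells with 0, 1, 2, 3, 4 and 5 markers. Cells with 2 markers, just outside the limit, therefore held 521 CPM (counting interval 494 to 550.0), near the 736 CPM (690.2 to 784) of cells with 3 and far from the 25.4 CPM of cells with none. Gsn, the actin-severing protein gelsolin, followed the same course with 447, 786, 3507, 5026, 5275 and 6764 CPM. Acta2 (smooth muscle actin) ran the other way, with 2651, 1928, 565, 305, 376 and 176 CPM. For these genes the cells just outside the limit were nearer to those inside it than to cells with no marker, and the count of 207 depends on where the limit was set.

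**Figure D2:**
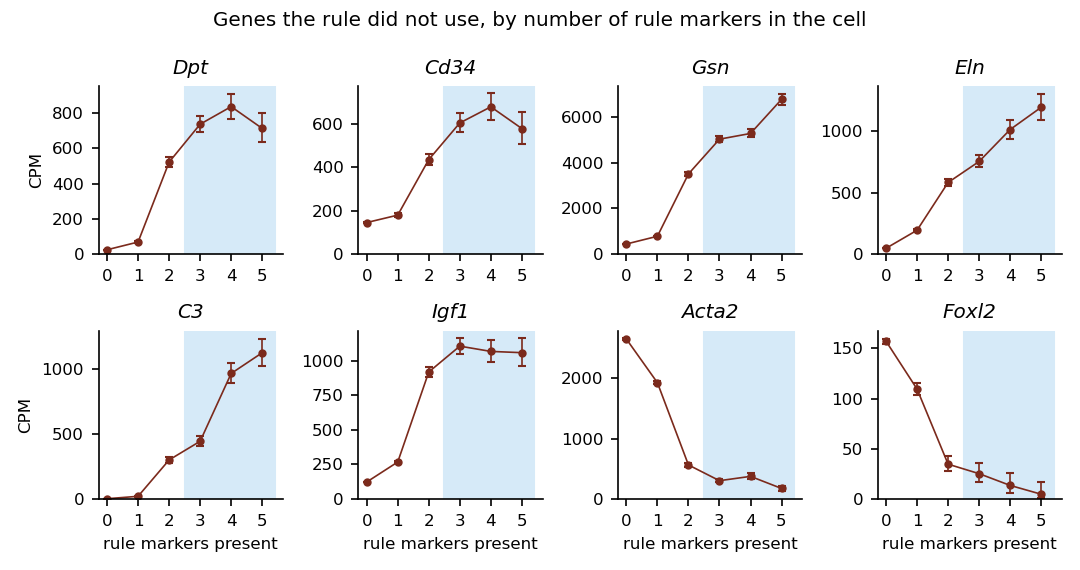
Levels (CPM, vertical axes from 0) of 8 genes outside the rule against how many of the 5 rule markers a stromal cell had (horizontal axes), all ages pooled, with exact Poisson 95% intervals as bars; the shaded cells are the Pi16/Col14a1 fibroblasts. Dpt, Cd34, Gsn, Eln, C3 and Igf1 already stood high in cells with 2 markers, and Acta2 and Foxl2 stood low there.

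The labelled identity was then read against markers the rule did not use. Dpt was named among the markers of this group beforehand, with earlier results of these data known, so its level is no independent check. Dpt measured 731, 569, 748, 880.5 and 720.0 CPM at 2, 3, 4, 5 and 6 wk, against 37.6, 51.8, 48.3, 56.5 and 18.8 CPM in the other stromal cells. The lowest library of the group lay above the highest library of the comparison. The mean ratio was 17.1 (counting interval 16.1 to 18.2). Here and below, a mean ratio is the ratio of the 2 mean levels over the 5 libraries, not an average of library ratios. Fold values of named genes against other stroma are the same quantity, whereas calls of 2-fold use the ratio within each library. For Dpt the smallest ratio within a library was 11.0. With each cell thinned to 4000 UMIs, 78.4% of Pi16/Col14a1 fibroblasts had a Dpt UMI (exact interval 72.1 to 83.9%), against 8.73% of other stromal cells. Unthinned, the shares were 84.5% and 12.8%. Granulosa cells, which should lack it, gave 0.269% and blood cells 0.402%, a measure of free RNA. Thinning left out 3 of the 207 cells.

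The gene for Dpt is shown with the stretch around its start because it is a gene known from this cell type that the rule did not use. The sequence is from RefSeq (build GRCm38.p6, chr1:164796413-164796712, plus strand), 250 bases before the start and 50 after, with TATAAA in capitals.
Dpt: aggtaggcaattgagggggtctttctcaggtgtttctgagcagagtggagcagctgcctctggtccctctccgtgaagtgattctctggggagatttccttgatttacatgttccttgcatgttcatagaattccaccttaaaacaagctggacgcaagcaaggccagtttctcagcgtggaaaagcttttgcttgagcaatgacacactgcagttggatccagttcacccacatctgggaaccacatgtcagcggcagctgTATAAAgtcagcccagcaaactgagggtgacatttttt
The letters TATAAA, searched on both strands, begin at base 263 of the window, after the start, and 15.7% of 27025 genes have them in this window. Of the 11 genes of the rule and Dpt, 5 had an entry, and Dpt, Il33 and Ptprc held these letters.

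A list of 26 adventitial fibroblast genes outside the rule, Dpt among them, gave a mixed picture. Of the 21 measured well enough, 8 were at least 2-fold higher in Pi16/Col14a1 fibroblasts than in other stromal cells in each of 5 libraries (2.83% over all genes, 364 of 12858), and 0 of the 8 that could be called lower were at least 2-fold lower. The median ratio was 2.81 against 0.876 over all genes. Cd34, a sialomucin of stem and stromal cells, measured 885, 496, 488, 521 and 418 CPM, 4.13-fold the comparison. Tnxb, the matrix glycoprotein tenascin X, measured 278, 407, 476, 411 and 406 CPM against 17.4, 26.4, 25.2, 22.4 and 10.7 CPM, with no overlap between the 2 groups of libraries. Its ratio of 19.4 (17.8 to 21.1) was 15.4 in the library where it was smallest. Gfpt2 (hexosamine synthesis), Cd248 (endosialin) and Cd55 (a complement inhibitor) were 12.5-, 8.46- and 6.65-fold higher. By contrast Igfbp6, Fbn1 and Mfap5, which the other stroma also held, reached mean ratios of 2.81, 1.88 and 2.55 and stayed under 2-fold in at least 1 library.

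Dpp4, the dipeptidyl peptidase that often accompanies Pi16 in fibroblasts of other tissues, was not detected. None of the 207 cells had a UMI, which at the limit of 3 counts allows a share of up to 1.45% of cells with one at this depth. The gene was in the files and was counted in 30 of 296 blood cells. Sema3c, also on the list, measured 18.5 to 72.7 CPM against 36.8 to 43.8 CPM, and Anxa3 36.4 to 46.9 against 18.3 to 66.9 CPM, both with overlap. The cells are called here by 2 of the markers that chose them, and whether they lie in adventitia was not tested.

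Across all genes, 364 of 12858 (2.83%) were at least 2-fold higher in Pi16/Col14a1 fibroblasts in each of the 5 libraries, and 83 of 3746 that could be called lower (2.22%) were at least 2-fold lower. These numbers describe the chosen cells, since the rule and the comparison use the same counts, and they carry no test. Without the 6 wk library, 136 genes were lower. For a gene with fewer than 3 UMIs in a library, 3 were put in its place on the lower side of the ratio. Among those with at least 200 UMIs, the 15 genes furthest up, taken by the smallest of their 5 ratios, were Podn, Clec11a, Fndc1, Ebf2, Adh1, C3, Tnfaip2, Col5a3, Slfn5, Ifi211, Serpina3n, Tnxb, Svep1, Medag and Igfbp3. Podn, a small leucine-rich proteoglycan named podocan (chr4:108014791-108096445, minus strand, GENCODE on GRCm38), measured 44.3, 36.4, 37.5, 53.6 and 12.3 CPM against 1.02, 1.03, 0.567, 1.12 and 0.383 CPM, and its smallest ratio was 32.1. Clec11a, a growth factor for bone-forming cells, measured 118, 76.1, 84.5, 111 and 80.0 CPM, 31.2-fold (26.0 to 37.4) the comparison. Every library of the group lay far above every library of the comparison for both genes. At 6 wk the 13 cells gave Podn only 2 UMIs, so its smallest ratio had a counting interval of 3.46 to 147. In 3 alternative settings 1 library held no Podn UMI and the smallest ratio was 0.

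Several of these genes belong to functions that fibroblasts are known for. Ebf2, a transcription factor of mesenchymal progenitors, measured 38.9, 19.8, 30.5, 54.9 and 24.6 CPM and 0.439 to 1.95 CPM in the comparison. Its relative Ebf1 was 6.92-fold higher, and both were at least 2-fold up in all 5 libraries. Adh1, which oxidises retinol and other alcohols, measured 403, 179, 152, 253 and 345 CPM, 26.6-fold (23.9 to 29.7) up. Col5a3 (a type V collagen chain) and Svep1 (a large adhesion protein of the matrix) were 31.0- and 17.1-fold up. Serpina3n (a serine protease inhibitor) and Tnfaip2 (induced by tumour necrosis factor) were 30.7- and 44.0-fold up, though Tnfaip2 ranged from 24.6 CPM at 6 wk to 401 at 5 wk. With cells thinned to 4000 UMIs, Clec11a had a UMI in 27.5% of the group against 0.976% of other stroma, and Ebf2 in 12.7% against 0.341%. In granulosa cells the thinned shares were 0.610% and 0.0213%.

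At the other end, contractile genes were lowest against the other stroma, from which contractile cells were not set apart. The 10 genes furthest down were Actg2, Foxl2, Ccdc3, Myh11, Acta2, Srpx2, Akr1cl, Lmod1, Tpm1 and Tagln, of which 6 encode parts or partners of the actin and myosin apparatus of smooth muscle. Acta2 (chr19:34241090-34255590, minus strand) measured 220.2, 443, 418, 264 and 289 CPM against 2659.6, 2185, 2321, 3328 and 2229 CPM, 0.128 times the comparison (0.118 to 0.140). Actg2, the enteric smooth muscle actin, measured 8.06, 13.2, 30.5, 20.1 and 0 CPM against 378, 294, 316, 528 and 169.6 CPM. Foxl2, the transcription factor of ovarian somatic identity, measured 26.9, 19.8, 14.1, 9.38 and 30.8 CPM against 169, 111, 122, 117 and 192 CPM. No library of the group reached the lowest comparison library for these 3 genes. Of the 9 smooth muscle genes listed, 6 were deep enough to be called lower and all 6 were (2.22% over all genes), and 0 were called higher (2.83%), with a median ratio of 0.123. They summed to 467, 1002, 978, 717 and 622 CPM against 5544, 5053, 5272, 7536 and 4283 CPM, with Acta2 the most abundant and none of the 9 at 0 over the group. The contractile RNA that remained was uneven, since 10 cells held 61.5% of the Acta2 UMIs of all 207.

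**Figure D3:**
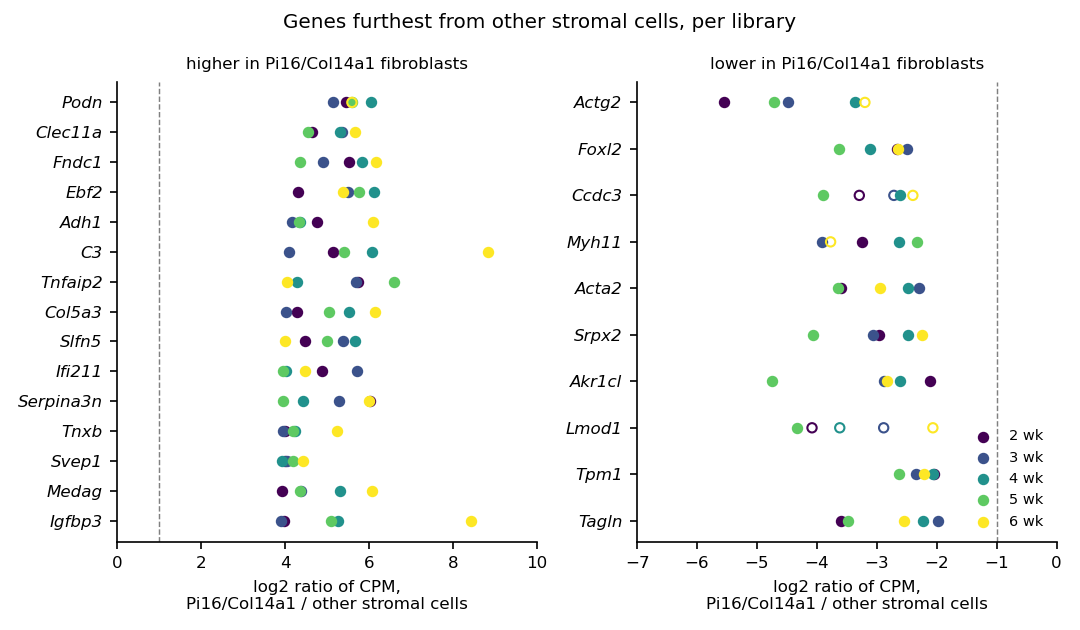
Log2 ratio of CPM in Pi16/Col14a1 fibroblasts to CPM in other stromal cells (horizontal axes) for the 15 genes furthest up (left) and the 10 furthest down (right) at 200 or more UMIs, 1 point a library coloured by age. Open points had under 3 UMIs and are drawn at 3, dashed lines mark 2-fold, and each gene keeps its side of the line in all 5 libraries.

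Many collagen genes, but not all, were higher in these cells than in other stroma. Of 31 genes for collagens and their processing, 15 were higher in all 5 libraries, and 1 of the 21 that could be called lower was (2.83% and 2.22% over all genes), and the median ratio was 3.53. Col3a1 measured 17933, 7584, 11395, 10970.4 and 9681 CPM, 8.24-fold (8.12 to 8.35) the other stroma. Col1a1 measured 12271, 7306, 10058, 7629 and 5865 CPM and was 6.57-fold up. Col1a2, Col6a1, Col6a2 and Col6a3 were 4.57-, 3.84-, 4.17- and 3.53-fold up, and Pcolce, which speeds the trimming of procollagen, 4.57-fold. Libraries of the 2 groups did not overlap for any of these 7 genes. The basement membrane chains Col4a1 and Col4a2 did not follow, with mean ratios of 0.817 and 0.860, and Col11a1 was lower, at 38.0 against 153 CPM.

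Of the elastic fibre genes, 8 of 21 were called higher and 0 of the 14 that could be called lower (2.83% and 2.22% over all genes), with a median ratio of 2.11. Eln, the elastin precursor, measured 1152, 949, 1091, 566 and 708 CPM against 133, 77.9, 72.3, 36.2 and 22.2 CPM. Fbln1, fibulin 1, which binds elastin and fibronectin, measured 839, 827, 1004, 1248 and 1403 CPM against 91.7, 90.3, 108, 109 and 94.2 CPM. The mean ratios were 13.1 and 10.8, and the libraries of the 2 groups did not overlap. Fbln2, Efemp1, Lox and Loxl1 (the last pair crosslink elastin and collagen) were 17.4-, 10.7-, 6.77- and 3.41-fold higher. Fbln1 is also a granulosa gene in this tissue, where 45.8% of thinned cells had a UMI. Fbn2, the fibrillin of early development, was lower in every library, with a mean ratio of 0.373 (0.306 to 0.454), short of 2-fold in 1.

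Among 14 proteoglycan genes 5 were higher and 0 of a possible 10 lower (2.83% and 2.22% over all genes), with a median ratio of 2.07. Lum (lumican) and Fmod (fibromodulin), which shape collagen fibrils, were 4.15- and 5.02-fold higher. Ogn (osteoglycin) was not, with 1133, 1019, 854, 638 and 979 CPM against 786, 799, 778, 1225 and 1366 CPM. Matrix proteases, their inhibitors and hyaluronan genes gave 13 of 30 higher and 0 of a possible 15 lower (again against 2.83% and 2.22%), median 2.21. Ugdh, which makes the sugar for hyaluronan, measured 594, 771, 720.3, 1029 and 142 CPM and was 5.55-fold higher. Has1, a hyaluronan synthase, measured 88.6, 116, 113, 377 and 49.2 CPM against 14.4, 9.03, 18.0, 38.8 and 12.2 CPM. Both stood highest at 5 wk and lowest at 6 wk. Has1 had a UMI in only 2 of 13 cells at 6 wk, and 3 cells held 39.5% of its UMIs at 5 wk. Mmp3 (stromelysin) had 70 UMIs in the group and a comparison mean of 0.514 CPM, and Timp2 was 3.77-fold higher.

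Among complement genes 7 of 15 were higher and 0 of a possible 6 lower (2.83% and 2.22% over all genes), with a median ratio of 5.33. Serping1, which encodes the inhibitor of the first complement component, measured 1613, 1729.9, 1844, 1856 and 2037 CPM against 233, 231, 333, 285 and 308 CPM. The proteases of that component, C1s1 and C1ra, were 5.97- and 6.56-fold higher. C3, on which all complement routes converge, averaged 816 CPM against 13.0, and C4b 102 against 4.69. After thinning, 48.5% of the group had a C3 UMI, against 1.49% of other stroma, 0.106% of granulosa cells and 8.43% of blood cells.

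Among 19 chemokine and cytokine genes 6 were higher, and 1 of the 3 that could be called lower was (2.83% and 2.22% over all genes). Cxcl1, which draws neutrophils, measured 87.3, 155, 425, 635 and 129 CPM and Il6 20.1, 13.2, 58.7, 143 and 12.3 CPM, 5.56- and 19.0-fold the comparison. Ccl2, the chemokine for monocytes, was at 0 UMIs at 2, 3 and 6 wk and at 141 CPM at 5 wk, where 12 of 60 cells had a UMI and 3 of them held 71.4% of its UMIs. Of the Il6 UMIs at 5 wk 3 cells held 44.9%, and only 2 cells had any at 3 wk and 2 at 6 wk. Of those of Cxcl1, 3 cells held 31.9% at 5 wk and 95.2% at 6 wk. The 5 wk library had the highest level of each of these 3 genes. Csf1 (a macrophage growth factor) was 4.15-fold higher, and Cxcl12, a chemokine that keeps blood progenitors in place, 3.19-fold with 1 library short of 2-fold. Cxcl14 was the gene called lower, at 81.6 against 392 CPM.

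**Figure D4:**
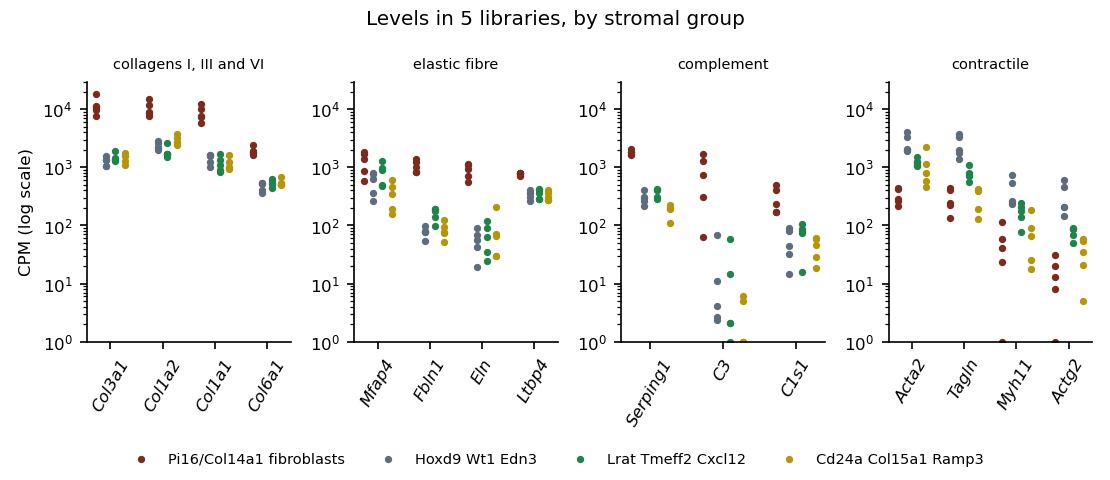
Levels (CPM, log axis, values under 1 drawn at 1) of collagen, elastic fibre, complement and contractile genes in Pi16/Col14a1 fibroblasts and in 3 other stromal groups, 1 point a library. Col3a1 in the fibroblasts stays at 7584 CPM or more, above every library of the other groups, while Acta2 stays at 443 CPM or less.

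Signalling genes are given as ligands, binding proteins and receptors, each count to be read against the 2.83% higher and 2.22% lower over all genes. Of 9 genes for insulin-like growth factors, 3 were higher and 0 of a possible 6 lower: Igf1, the ligand, measured 1685, 602, 704, 977 and 739 CPM against 245, 132, 131, 123 and 89.2 CPM, Igfbp3 averaged 557 against 11.9 CPM, and Igf2r was 2.55-fold higher. Of 14 WNT genes, 3 were higher and 0 of a possible 4 lower. Rspo1, which amplifies WNT signals and is required in ovary development, measured 37.6, 86.0, 106, 105 and 92.3 CPM, 17.8-fold the comparison, and the WNT antagonist Sfrp1 was 3.38-fold higher. Of 25 genes of the BMP and TGF-beta families, 6 were higher and 0 of a possible 11 lower, among them the ligands Tgfb2 and Gdf10 at 4.57- and 6.96-fold and the receptor Tgfbr2 at 3.06-fold. Of 16 receptor genes, 3 were higher and 2 of a possible 8 lower. Pdgfrl, a relative of the PDGF receptors, was 12.7-fold higher, whereas Pdgfra itself was not apart, with a mean ratio of 1.22. Ptch1, the receptor and target of hedgehog signals, measured 73.9, 62.8, 96.2, 37.5 and 12.3 CPM against 189, 334, 241, 200.2 and 235 CPM.

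Of 34 transcription factors in the list, 2 were higher (Ebf1 and Ebf2), against 2.83% over all genes. Of the 20 that could be called lower, 3 were (Foxl2, Gata4 and Tcf4), against 2.22% over all genes, with a median ratio of 1.32. Gata4, a partner in gonadal gene control, averaged 17.4 against 56.8 CPM. Tcf21 and Nr2f2, which mark gonadal mesenchyme, had mean ratios of 0.948 and 0.636. Of 24 HOX genes, which record position along the body, 2 were higher, Hoxa9 and Hoxb5, and 0 of the 4 that could be called lower were (2.83% and 2.22% over all genes). The median ratio over the 24 was 1.81 against 0.876 over all genes. Hoxb5 had 21 UMIs in all 207 cells. Against that median, Hoxd9, Hoxc6, Hoxd8 and Hoxc8 were below the comparison in all 5 libraries, at mean ratios of 0.506, 0.627, 0.606 and 0.599. Steroid and retinoid genes gave 1 of 23 higher and 1 of a possible 9 lower (2.83% and 2.22% over all genes). The former was Hsd11b1, which regenerates active glucocorticoid, at 34.7 against 1.10 CPM. The 14 genes of the parenchymal Col15a1 fibroblast list gave 5 higher and 0 of a possible 10 lower (2.83% and 2.22% over all genes). Among the 5 were Col15a1 itself at 6.80-fold and Penk at 5.09-fold, so genes of the 2 kinds of fibroblast known from other organs occurred in the same group.

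Of 24 proliferation genes, 5 were deep enough to be called lower and 1, Stmn1, was (2.22% over all genes). That count was 0 to 3 in the 21 alternatives and other than 1 in 11 of them. No gene of the list was called higher (2.83% over all genes), and the median ratio was 0.371 against 0.876 over all genes. Top2a averaged 23.2 against 92.3 CPM. Immediate-early and heat-shock genes, which rise when tissue is dissociated, gave 0 of 25 higher and 0 of a possible 24 lower (2.83% and 2.22% over all genes). Their summed level was 23299.9 to 33224 CPM across libraries against 20533 to 31997 CPM, with Fos the most abundant, at 4729.9 CPM on average in the group and 4710.0 in the comparison. Atf3 and Dusp1 of this list were above the comparison in 5 of 5 libraries, at 2.26- and 2.84-fold. Their part in the other results was not tested.

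Markers of other cell types were summed in the group and in the other stromal cells. Of 10 blood endothelial genes 3 had no UMI in the group, and the 10 summed to 40.3, 43.0, 35.2, 56.3 and 117 CPM from 2 to 6 wk, against 38.4, 41.9, 67.1, 65.0 and 65.4 CPM. The sums were thus close at 2 and 3 wk, lower in the group at 4 and 5 wk and higher at 6 wk. The largest was Kdr, a vascular growth factor receptor, at 26.9, 29.8, 9.38, 32.2 and 36.9 CPM. Kdr was the 1 gene called higher of the 7 tested in that list (2.83% over all genes), at 14.8-fold. Pecam1, the junction protein of endothelium, had 5 UMIs in all. The 12 blood cell genes summed to 6.15 to 30.5 CPM against 13.5 to 28.3 CPM, with Cd68 the largest. The 10 theca genes summed to 12.3 to 48.2 CPM against 50.8 to 164 CPM, with Star the largest, and the 11 surface epithelial genes to 0 to 13.2 CPM against 5.63 to 13.2 CPM, with 8 of them at 0 in the group. The 5 lymphatic genes summed to 0 to 14.7 CPM against 6.65 to 18.8 CPM with 3 at 0, and the 12 glial, adipocyte and oviduct genes to 10.7 to 26.5 CPM against 34.6 to 112 CPM with 6 at 0. In the latter list the 1 gene that could be called lower was (2.22% over all genes). Pericyte genes summed to 73.9 to 139.7 CPM against 63.0 to 105 CPM, with 0 of 7 called higher (2.83% over all genes) and none deep enough to be called lower. Granulosa genes summed to 258 to 479.8 CPM against 459 to 564 CPM, led by Gja1. Of the 3 granulosa genes that could be called lower 1 was (2.22% over all genes). The part of these markers in the other results was not tested.

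Several of these genes also stood apart from 3 other stromal groups, defined among the remaining cells by 2 or more of Hoxd9, Wt1 and Edn3 (2860 cells), of Lrat, Tmeff2 and Cxcl12 (1110 cells) or of Cd24a, Col15a1 and Ramp3 (814 cells) and by no other such pair. Serping1 averaged 298, 367 and 188 CPM there, against 1816 in Pi16/Col14a1 fibroblasts. Igf1 averaged 122, 197 and 121 CPM against 941. Foxl2 averaged 190.1, 129.7 and 69.7 CPM against 20.2, so all 3 groups held several times as much. Other genes were shared with 1 group: Cxcl12 averaged 328 CPM in the second group and 359 in the fibroblasts, though it helped to choose the former, and Plac8 329 CPM in the third group against 168. Igfbp7 averaged 3928 CPM in the third group and 2354 in the fibroblasts.

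Cells within the group also differed from each other, in matrix and stress genes among others. Variance between cells of a library, relative to that of Poisson counting at each cell's depth, had a median of 1.40 over 1514 genes with at least 200 UMIs. It was 69.8 for Mgp (matrix Gla protein, a brake on calcification), 50.5 for Col1a2, 39.2 for Sparc, 28.7 for Fos and 17.3 for Tnfaip6, a hyaluronan-binding protein. Such ratios grow with a gene's level, so they do not rank genes of unlike abundance. The top 10 cells held 39.2% of the Tnfaip6 UMIs and 30.4% of those of Eln.

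Cells with a Pi16 UMI (101) and without (106) had like median depths over all ages, 10334 and 10556 UMIs, but 10862.5 and 13003 at 5 wk. Pi16 and Il33 belong to the rule, so a cell without one of them was kept only with 3 of the other 4 markers, whereas a cell with it needed 2. The 2 sides of either split were thus chosen differently, and their values, pooled over the 5 libraries, are a description. Eln measured 1263 CPM with Pi16 and 572 without. The ratio with to without was 2.21 for Eln, 1.34 for Ltbp4, 1.66 for Clec11a and 0.668 for Tgfb2. Split by Il33 (160 cells with, 47 without), it was 3.23 for Gas6, a ligand for the receptor Axl, 1.97 for Ogn, 2.04 for Svep1, 0.635 for Col15a1 and 0.566 for Igfbp3. Cells with Pi16 were 17 of 51 at 2 wk and 34 of 60 at 5 wk. Cells without Il33 were 4 of 51 at 2 wk and 20 of 60 at 5 wk. Age and the split are thus mixed in the ratios of both splits. A cell that lacks a UMI of a marker may still express it, and cells within a library are not replicates.

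Few genes differed with age by the rule used. A gene counted as differing when 5 and 6 wk were both at least 2-fold above, or both at least 2-fold below, 2 and 3 wk. In Pi16/Col14a1 fibroblasts 31 of 3262 genes (0.95%) stood higher and 25 of 2906 (0.86%) lower. Scaling the libraries by TMM, a trimmed mean of ratios, gave 39 higher and 17 lower. In the other stromal cells 24 and 12 of the same genes met this rule, 14 of the 31 and 2 of the 25 being common to both. Leaving out the 2, 3, 5 or 6 wk library gave 99, 59, 60 and 78 genes higher and 86, 73, 363 and 56 lower, because each gene then met fewer conditions. The 5 and 6 wk files were made with Cell Ranger 6.0.1 and those of 2, 3 and 4 wk with 3.1.0. In this comparison of 5 and 6 wk with 2 and 3 wk, age, library and software version therefore cannot be told apart. Between 2, 3 and 4 wk the version was the same, but age and library still cannot be told apart. Lars2, a mitochondrial tRNA ligase, was higher in the 2 later libraries in both kinds of cell, with 16.1, 43.0, 51.6, 212 and 172 CPM in the fibroblasts and 24.3, 39.4, 39.6, 183 and 148 CPM in other stroma at 2 to 6 wk. Gm42418, which overlaps ribosomal RNA repeats, measured 857, 1396, 1133, 11819 and 7004 CPM in the fibroblasts.

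C3 belonged both to the genes above other stroma and to those higher with age. It measured 63.1, 308, 739, 1276 and 1692 CPM at 2, 3, 4, 5 and 6 wk, while other stromal cells held 1.78, 18.0, 11.0, 30.3 and 3.73 CPM. Each age lay above the one before, with 6 wk 26.8-fold 2 wk (counting interval 19.6 to 37.4). The share of the fibroblasts with a C3 UMI was 25.5%, 44.7%, 71.1%, 81.7% and 92.3% at the same ages, and its 3 richest cells held 63.8% of its UMIs at 2 wk and 51.3% at 6 wk. C4b, its partner in the classical route, measured 16.1, 23.2, 65.7, 172 and 234 CPM against 0.765, 2.83, 5.23, 10.0 and 4.63 CPM. At 5 and 6 wk its 3 richest cells held 38.3% and 84.2% of its UMIs. C1s1 was at 173, 172, 237, 490.5 and 406 CPM against 17.8, 34.4, 47.4, 68.4 and 79.7 CPM. The lower of 5 and 6 wk over the higher of 2 and 3 wk was 2.34 for C1s1 in the fibroblasts and 1.99 in other stroma. Of 9 complement genes with 100 or more UMIs, these 3 were called higher with age (0.95% over all genes).

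Igfbp3 measured 205, 271, 178, 663 and 1465 CPM, level up to 4 wk and highest at 6 wk, against 13.0, 18.1, 4.66, 19.4 and 4.21 CPM in other stroma. In the 13 cells of 6 wk, 3 cells held 50.8% of its UMIs. Efemp1 (fibulin 3) measured 109, 92.6, 150.2, 449 and 363 CPM. Inmt, an amine methyltransferase of lung and other parenchymal fibroblasts, measured 1.34, 36.4, 18.8, 80.4 and 246 CPM, with 72.5% of its UMIs at 6 wk in 3 cells. All 3 belonged both to the genes higher than in other stroma and to those higher with age. Osr2, a transcription factor of mesenchyme, measured 25.5, 46.3, 141, 145 and 191 CPM and did so without standing above the other stroma (mean ratio 1.17), with 61.3% of its UMIs at 6 wk in 3 cells.

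The 31 genes higher with age also held Cxcl10, Ifi27l2a, Ifi203, Ifi204, Iigp1 and Isg15, known as targets of interferon, and the antigen-presenting genes H2-K1 and H2-D1. Cxcl10, a chemokine for T cells, measured 28.2, 19.8, 155, 177 and 271 CPM against 12.9, 45.3, 106, 154 and 43.3 CPM in other stroma. Few cells carried it, 4 of 51, 4 of 38, 7 of 45, 15 of 60 and 1 of 13 from 2 to 6 wk, so its level at 6 wk was that of 1 cell. At 5 wk 3 cells held 59.1% of its UMIs. Ifi27l2a measured 40.3, 19.8, 232, 232 and 332 CPM against 11.6, 20.6, 160.3, 283 and 353 CPM. Here the 2 kinds of cell ran together, with Ifi27l2a low at 2 and 3 wk and high from 4 wk in both. H2-K1, a class I antigen-presenting protein, measured 26.9, 43.0, 113, 163 and 443 CPM against 22.0, 36.6, 56.2, 88.6 and 88.3 CPM. Isg15, a ubiquitin-like protein, measured 4.03, 6.62, 32.8, 42.9 and 351 CPM, and the lower of 5 and 6 wk over the higher of 2 and 3 wk (3 UMIs where fewer) was 4.32 for it in the fibroblasts and 8.05 in other stroma. At 6 wk 3 cells held 72.2% of the UMIs of H2-K1 and 93.0% of those of Isg15, with a UMI in 12 and 6 of the 13 cells. This grouping was made after the values were seen and was not one of the lists.

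The stretches around the starts of C3 and Cxcl10 are shown because both genes were called higher with age, C3 in most cells by 6 wk and Cxcl10 through 1 cell at that age. Both are from RefSeq (GRCm38.p6, minus strand, chr17:57228087-57228386 and chr5:92348840-92349139), 250 bases before the start and 50 after. Capitals mark TATAAA in C3 and, in Cxcl10, GAAA followed by any 2 bases and again GAAA, a common form of the element bound by interferon regulatory factors.
C3: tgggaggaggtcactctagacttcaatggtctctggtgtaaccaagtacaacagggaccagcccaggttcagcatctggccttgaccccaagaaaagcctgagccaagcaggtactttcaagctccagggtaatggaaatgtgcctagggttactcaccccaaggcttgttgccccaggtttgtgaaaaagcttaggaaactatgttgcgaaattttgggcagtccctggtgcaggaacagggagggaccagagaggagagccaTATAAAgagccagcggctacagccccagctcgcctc
Cxcl10: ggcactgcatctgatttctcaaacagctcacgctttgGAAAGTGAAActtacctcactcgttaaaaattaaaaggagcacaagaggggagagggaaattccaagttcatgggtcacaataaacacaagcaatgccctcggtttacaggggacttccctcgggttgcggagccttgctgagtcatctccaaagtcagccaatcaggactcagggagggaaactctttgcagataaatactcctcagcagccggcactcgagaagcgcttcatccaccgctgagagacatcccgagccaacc
TATAAA begins at base 265 of the C3 window, after the start, and the doubled GAAA begins 213 bases before the start of Cxcl10. Of 27025 genes, 3.99% hold the doubled GAAA on either strand in such a window. Of the 8 genes furthest up with age at 200 or more UMIs, 6 had an entry, and Cxcl10 and Ifi203 held it. Among the 15 genes furthest above other stroma 14 had an entry, and Ifi211 and Slfn5 held it. These are matches of letters only.

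Among those with at least 200 UMIs, the genes lower at 5 and 6 wk were led by Ntrk3, Nrk, Plagl1, Peg3, Dpep1, Fscn1, Nrep and Supt5. Nrk, a kinase of embryonic and placental tissue, measured 642, 271, 134, 76.4 and 36.9 CPM, falling at each step, against 93.4, 31.2, 31.4, 26.9 and 19.95 CPM in other stroma. At 6 wk only 3 of 13 cells had an Nrk UMI, so its last step rests on few cells. Peg3, an imprinted zinc finger gene of growing tissue, measured 481, 447, 378, 137 and 154 CPM against 158, 134, 102, 91.9 and 55.0 CPM. Ntrk3, the receptor for neurotrophin 3, measured 152, 175, 54.0, 38.9 and 30.8 CPM against 28.7, 27.0, 20.8, 20.9 and 20.3 CPM. For Nrk and Ntrk3 the fibroblasts stood well above other stroma at 2 and 3 wk and nearer to it at 6 wk, while Peg3 stayed above it at all ages. Plagl1, another imprinted zinc finger gene, measured 136, 122, 86.8, 37.5 and 36.9 CPM and Zdbf2, also imprinted, 80.6, 69.5, 30.5, 21.4 and 0 CPM. Aspn, the proteoglycan asporin, measured 385, 225, 115, 111 and 55.4 CPM, and Epha3, a guidance receptor, 114, 82.7, 32.8, 14.7 and 24.6 CPM. Fscn1, Nrep and Supt5 fell short of 2-fold when the limit was set at 2 or 4 markers. Imprinted genes were not a list, and Zdbf2, Aspn and Epha3 are named from the 25 after their values were seen.

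**Figure D5:**
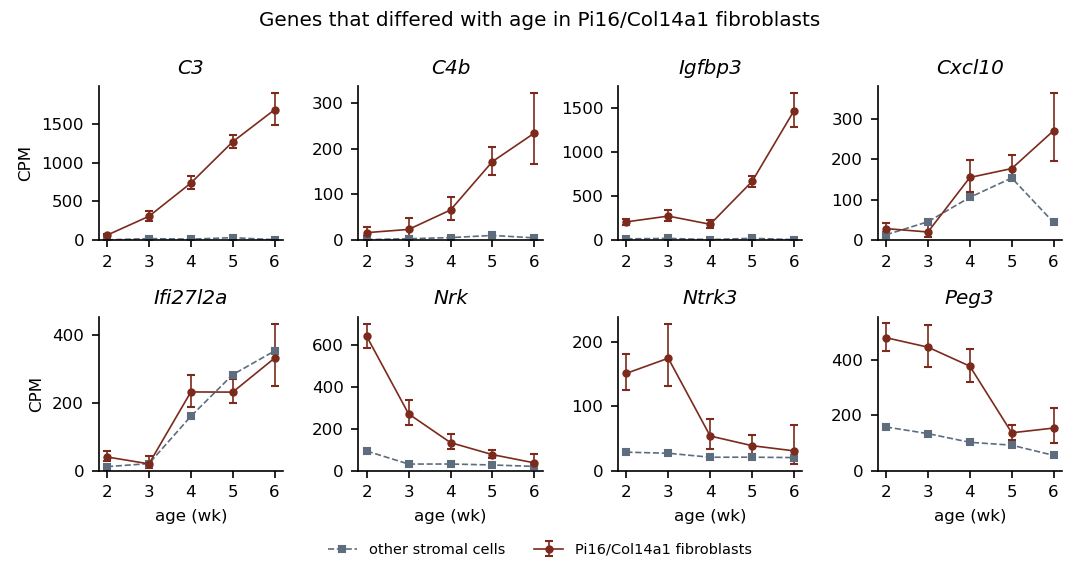
Levels (CPM, vertical axes from 0) against age (wk) of 8 genes that differed with age in Pi16/Col14a1 fibroblasts (circles, exact Poisson 95% intervals for counting error) and in other stromal cells (squares). C3, C4b and Igfbp3 stay near 0 in other stroma, Ifi27l2a runs alike in both, and Nrk and Ntrk3 start well above other stroma and end nearer to it.

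Of 24 collagen genes with 100 or more UMIs, 0 were called with age in either direction (0.95% higher and 0.86% lower over all genes), and Col3a1 was highest at 2 wk. The median ratio of 6 wk to 2 wk was 0.534 over collagen genes, against 0.831 over all 3262. Elastic fibre genes gave a median of 0.615 over 18 genes and complement genes one of 1.26 over 9. Values at 6 wk rest on 13 cells and 162490 UMIs, at which 3 UMIs are 18.5 CPM.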

How the data were processed

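Ovaries were dissociated, live cells were sorted and RNA was captured by droplet single-cell sequencing of transcript 3′ ends. The deposited values are UMI counts per gene and cell, which the authors made with Cell Ranger on mm10 (3.1.0 for 2, 3 and 4 wk and 6.0.1 for 5 and 6 wk per the file headers), and the submitters' processing notes also name Seurat 4.1.0. Cells were kept at 1000 or more detected genes and under 15% mitochondrial counts, and the rule was applied to raw counts. Counts were summed per library over Pi16/Col14a1 fibroblasts and over the other Dcn-positive cells and divided by their totals (CPM). A mean ratio is the CPM of the fibroblasts averaged over libraries, divided by the same average in the other cells. The median ratio of a list against other stroma is the median of the mean ratios of its genes. No filter on doublets was applied, and Scrublet (scanpy 1.11.5) calls served as an alternative.

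Genes with at least 100 UMIs in both kinds of cell together were compared with other stroma, and those with at least 100 in the fibroblasts with age. A gene could be called lower only where the level it was compared with was at least 2 times that of 3 UMIs in the fibroblasts. The genes furthest up were the 15 with the largest least ratio over libraries, and those furthest down the 10 with the smallest greatest ratio. With age they were the 8 and 8 furthest by the quantity of the age rule. All had 200 or more UMIs, and genes of the rule, ribosomal protein, mitochondrial and unnamed gene models were left out. Up to 4 genes of each of 26 lists, by level, were fixed to be described, and other list members were chosen as examples after their values were seen. The members and lists were chosen with earlier results of these data known. With 1 library an age, nothing was tested, and intervals (exact Poisson for CPM, exact binomial for shares, conditional exact for ratios within a library and a log approximation for mean ratios, 95%) cover counting error only. A share of 0 is given with the limit of 3 counts. Fixed alternatives changed the limits, the scale (TMM in edgeR 4.0.16), the comparison cells and the libraries. Python 3.11.15, numpy 2.4.6 and scipy 1.17.1 were used. Some items of the lists are not reported here.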

Additional observations from a re-analysis of the deposited data

How the results depend on the processing

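The count of genes higher than in other stroma (364) stayed between 255 and 464 under all 21 alternatives run. The share of deposited cells moved with the limit on markers: at 2, 3, 4, 5 and 6 wk it was 1.28, 1.09, 0.785, 1.32 and 0.255% with 2 markers and 0.211, 0.119, 0.190, 0.399 and 0.0472% with 4. The setting without Ly6a needed 2 of the 4 other markers, so it also lowered the limit. There the share was 1.28, 1.09, 0.749, 1.25 and 0.217%. It was 0.327, 0.162, 0.253 and 0.540% at 2 to 5 wk where 2 UMIs made a marker present, 0.201, 0.259, 0.280 and 0.463% with cells thinned to 4000 UMIs, and 0.348, 0.184 and 0.181% at 2, 3 and 4 wk with 0 UMIs of Inha. The 6 wk share was lowest in each of these settings, and the 5 wk share highest in all but that without Ly6a, where 2 wk was. Genes lower than in other stroma numbered 83, and 43 with 4 markers, 54 with 2 UMIs a marker, 52 with 0 UMIs of Inha, 54 in thinned cells and 88 to 136 without a library, the last without 6 wk. Genes higher with age numbered 31, and 19 in thinned cells, 61 at 30 or more UMIs, 8 at 500 or more and 59 to 99 without a library (99 without 2 wk). Genes lower with age numbered 25, and 41 with 2 markers, 12 with 4, 15 with 2 UMIs a marker, 15 with 0 UMIs of Inha, 47 without Ly6a, 14 in thinned cells, 48 at 30 or more UMIs, 2 at 500 or more and 56 to 363 without a library (363 without 5 wk, where the 13 cells of 6 wk stand alone). The genes themselves changed with the rule: of the 25, 11 were shared with 2 markers, 4 with 4, 9 with 2 UMIs a marker, 7 with 0 UMIs of Inha, 12 without Ly6a and 4 in thinned cells, and of the 31, 21, 17, 18, 23, 21 and 17 in the same order. Of the 83 genes lower than in other stroma, 50 were shared with 2 markers and 33 with 4. Of the 364 higher, 303 were shared with 2 markers and 244 with 4. Leaving out a library was an alternative for the age counts chosen after seeing the data, and it asks less of each gene. The least ratio of Podn was 0 with 4 markers, 2 UMIs a marker and thinned cells, and those of Ebf2 and Tnfaip2 were 0 with 0 UMIs of Inha, since 1 library then held no UMI. Myh11, Lmod1, Tpm1, Plagl1, Fscn1, Nrep and Supt5 lost their call in 24 settings between them, 6 each for Nrep and Supt5 and 5 for Fscn1. The causes were not tested. No paired analysis was possible because each age is 1 library.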
